A study of Rattus norvegicus with 2 samples.

Results

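Genes of macrophage lysozyme and of scavenger receptors were followed in rat lung by every probe set that the platform annotation ties to 1 gene symbol among *Lyz2*, *Cd68*, *Mrc1*, *Cd163*, *Msr1*, *Marco*, *Siglec1*, *Scarb1* and *Scarb2*. This gave 7 of the 31042 non-control probe sets, for 6 of the 9 genes: *Scarb1* had 2 probe sets and the other 5 genes had 1 each. No probe set was annotated to *Msr1*, *Marco* or *Siglec1*, under the annotation's symbol, under the current symbol or among probe sets with several symbols, so these 3 genes were not analysed here. Total RNA from lung was hybridised to 2 Affymetrix Rat Genome 230 2.0 arrays, 1 handled by experimenter 2 and 1 by experimenter 1, numbered as in the array titles, in a study of how reproducible such profiles are. A probe set on this array is a group of short probes against 1 transcript, mostly near its 3' end. Both arrays carry the same labels except for the experimenter. No label names a strain, sex, age, treatment or number of animals, or says whether both experimenters worked from the same lung or RNA. With 1 array per experimenter no difference below has a replicate error, and none was tested.

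Macrophages of the lung clear inhaled particles, microbes, surfactant and dying cells, and scavenger receptors are the surface proteins that bind modified lipoproteins, bacterial walls and other altered ligands for uptake. *Lyz2* encodes a secreted lysozyme that cuts the peptidoglycan of bacterial walls, and in rodent lung it is made by alveolar type 2 cells as well as by macrophages. Inside the cell the cargo reaches endosomes and lysosomes, where *Cd68* (macrosialin, a heavily glycosylated membrane protein) and *Scarb2* (LIMP-2, which carries glucocerebrosidase to the lysosome) reside. *Mrc1* encodes the mannose receptor, a lectin, *Cd163* the receptor for complexes of haptoglobin and haemoglobin, and *Scarb1* a class B scavenger receptor that takes cholesterol esters from high-density lipoprotein.

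The upstream sequences of 4 of the genes are shown because they differ in base composition between *Scarb2*, a broadly expressed gene, and genes known as myeloid markers. They are the 250 bases before the gene start of RefSeq assembly GRCr8 and were looked up by symbol; 5 of the 6 measured genes had an entry. Capitals mark matches to any of 4 motifs, each searched on both strands, so that the reverse complement is also in capitals. The core letters bound by PU.1, a myeloid transcription factor, were searched as GAGGAA. An SP1 box was searched as GGGCGG and a TATA box as TATAAA. An AP-1 site was searched as TGAGTCA. The motifs do not overlap in these sequences. *Lyz2* lies at chr7:54798012-54798261 (minus strand), *Cd68* at chr10:54882442-54882691 (minus strand), *Cd163* at chr4:158770524-158770773 (plus strand) and *Scarb2* at chr14:15842333-15842582 (plus strand).
Lyz2: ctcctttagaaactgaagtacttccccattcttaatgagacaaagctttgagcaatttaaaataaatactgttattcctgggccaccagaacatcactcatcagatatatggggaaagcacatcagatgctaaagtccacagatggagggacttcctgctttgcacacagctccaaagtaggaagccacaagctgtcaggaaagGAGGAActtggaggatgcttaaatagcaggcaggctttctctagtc
Cd68: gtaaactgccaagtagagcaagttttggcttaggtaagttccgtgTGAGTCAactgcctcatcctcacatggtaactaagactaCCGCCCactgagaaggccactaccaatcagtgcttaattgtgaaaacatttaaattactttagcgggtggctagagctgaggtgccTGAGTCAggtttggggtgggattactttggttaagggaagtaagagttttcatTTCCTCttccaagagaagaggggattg
Cd163: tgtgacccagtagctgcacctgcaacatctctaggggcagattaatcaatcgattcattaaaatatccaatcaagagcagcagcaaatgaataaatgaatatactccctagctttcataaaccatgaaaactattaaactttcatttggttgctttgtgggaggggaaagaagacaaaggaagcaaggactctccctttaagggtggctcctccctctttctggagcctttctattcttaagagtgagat
Scarb2: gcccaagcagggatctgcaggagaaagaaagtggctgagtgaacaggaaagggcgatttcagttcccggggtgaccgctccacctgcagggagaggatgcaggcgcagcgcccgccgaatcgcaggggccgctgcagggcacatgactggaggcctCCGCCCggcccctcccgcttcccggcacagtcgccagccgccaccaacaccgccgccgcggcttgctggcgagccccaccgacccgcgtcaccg

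The *Scarb2* sequence was 70.0% G and C and held 24 CpG dinucleotides, a count that 90.3% of all 33469 upstream sequences did not exceed. *Lyz2* held 0 CpG at 43.6% G and C, *Cd163* held 1 at 40.8%, *Cd68* held 3 at 45.2% and *Mrc1*, not printed, held 4 at 49.6%. Over all sequences the medians were 5 CpG and 51.2% G and C, so *Mrc1* lay near the middle. *Scarb2* was the 1 gene on its side of this contrast. GAGGAA was found once in *Lyz2*, at position -46 relative to the gene start, once in *Cd68* and at 2 places in *Mrc1*, but not in *Cd163* or *Scarb2*; 23.3% of all sequences hold it. GGGCGG was found in *Cd68*, *Mrc1* and *Scarb2* (30.5% of all sequences), TGAGTCA at 2 places in *Cd68* (4.05%) and TATAAA in none of these 5 (12.9%). These are matches of letters in a window, and nothing measured here bears on the binding of a factor.

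The members spanned much of the range of signal on both arrays. Values are on the log2 scale of the deposited RMA table, which ran from 2.26 to 14.49 with a median of 6.28 for experimenter 2, and from 2.31 to 14.51 with a median of 6.32 for experimenter 1. Each probe set is also given its percentile among the 31042 non-control probe sets of its own array. The signal of a probe set depends on its probes as well as on its transcript, so the percentiles describe where a probe set lies on the array and do not rank the transcripts by abundance. In whole lung, moreover, fewer cells of a type and less RNA per cell cannot be told apart.

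*Lyz2* (probe set 1370154_at) measured 14.49 for experimenter 2 and 14.51 for experimenter 1 and held rank 1 of all non-control probe sets on both arrays. The difference, experimenter 2 minus experimenter 1, was -0.018 on the log2 scale, a fold of 0.988, and 93.9% of all probe sets differed by at least as much. Whether these probes were saturated was not assessed. Other probe sets lay close below that of *Lyz2*. Those of *Scgb1a1* measured 14.44 for experimenter 2 and 14.37 for experimenter 1, and those of *Sftpc* 14.36 for experimenter 2 and 14.39 for experimenter 1.

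Of the endosomal and lysosomal membrane proteins, *Cd68* had the widest difference among the members and *Scarb2* the narrowest. *Cd68* (1375010_at) measured 10.16 for experimenter 2 and 10.39 for experimenter 1, at percentiles 94.2 and 95.1. Its difference of -0.23, a fold of 0.854, was about the size of the wider *Scarb1* difference, and 37.02% of all probe sets differed by at least as much. *Scarb2* (1368379_at) measured 7.94 on both arrays, at percentiles 71.9 for experimenter 2 and 71.2 for experimenter 1. Its difference was 0.0072, and 97.4% of all probe sets were at least as far apart.

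*Mrc1* (1392648_at), the mannose receptor, measured 10.42 for experimenter 2 and 10.56 for experimenter 1, at percentiles 95.3 and 95.8. The difference was -0.15, a fold of 0.903, and 55.4% of all probe sets differed by at least as much. *Cd163* (1393917_at) measured 5.26 for experimenter 2 and 5.17 for experimenter 1, at percentiles 36.95 and 35.1, and was the 1 member below the median of all probe sets. Its difference was 0.092, a fold of 1.07, in the opposite direction to that of *Mrc1*, and 70.5% of all probe sets were at least as far apart.

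RMA gives no detection calls, so the *Cd163* signal was set beside 16 genes of retina, germ cells, pancreas, pituitary and kidney. Of these, 13 lay at lower percentiles than *Cd163* for experimenter 2 and 12 for experimenter 1, and 15 of the 16 were below the median level. The exception was *Cela1*, an elastase, at percentiles 85.6 for experimenter 2 and 87.6 for experimenter 1. The widest difference of this list was that of *Gcg*, the glucagon gene, at -0.59, past 1.5-fold at a low level. The *Cd163* probe set therefore lay above most of this list and below the rest of it on both arrays. The arrays give no limit below which a signal counts as background.

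*Scarb1* was the 1 member measured by more than 1 probe set. Probe set 1386956_at measured 8.92 for experimenter 2 and 9.14 for experimenter 1, at percentiles 83.95 and 86.02, a difference of -0.23. Probe set 1367855_at measured 7.90 for experimenter 2 and 8.06 for experimenter 1, at percentiles 71.2 and 72.9, a difference of -0.16. Both were lower for experimenter 2, with folds of 0.854 and 0.894, and their differences lay 0.065 apart. Both come from the same pair of labelled samples, so their shared direction is no replicate of the comparison.

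**Figure D1:**
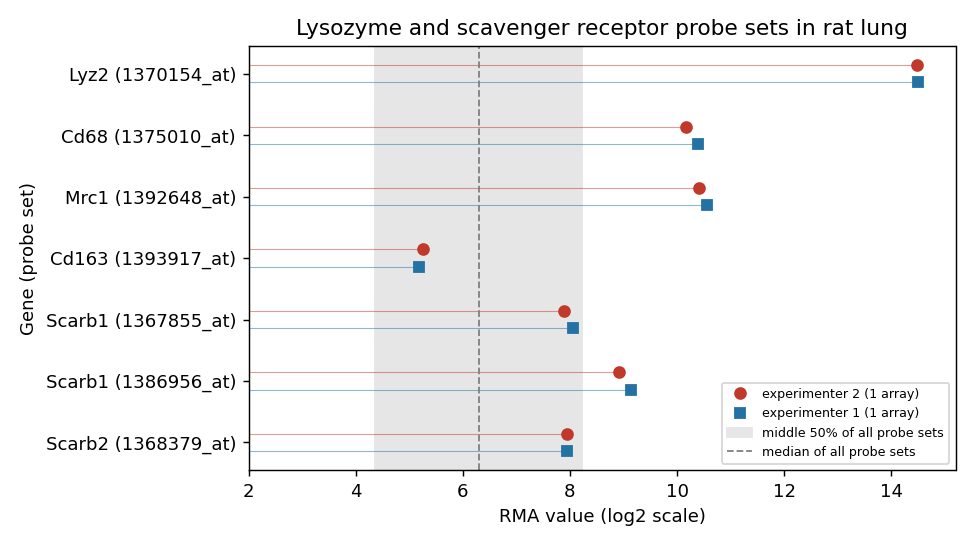
RMA values on the log2 scale (horizontal axis) of the 7 probe sets of lysozyme and scavenger receptor genes (vertical axis) on the array of experimenter 2 (circles) and the array of experimenter 1 (squares). The grey band is the middle 50% of all probe sets and the dashed line their median. The 2 marks of each probe set lie at most 0.23 apart, with *Lyz2* near 14.5 and *Cd163*, the lowest, near 5.2.

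Across the members, 0 of 7 probe sets were at least 1.5-fold apart (0.585 on the log2 scale), against 4.35% of all non-control probe sets, and 0 of 7 were at least 2-fold apart, against 0.37% of all. With 7 probe sets, counts of 0 are near these backgrounds. By sign, 5 of the 7 were lower for experimenter 2, against 58.7% of all probe sets, and 2 were higher, against 41% of all. Their median difference was -0.15, against -0.052 over all probe sets, and their median absolute difference was 0.15, against 0.17. The widest member difference corresponded to 1.17-fold in either direction.

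The spread between the arrays varied with level, so each member was also set beside probe sets of like level, in 10 bins of equal size by mean. In the highest bin, which holds *Lyz2*, *Cd68* and *Mrc1*, the difference had an SD of 0.23 over 3105 probe sets, close to the size of the *Cd68* difference. In the bin of *Scarb2* and of *Scarb1* probe set 1367855_at the SD was 0.26, in that of *Scarb1* probe set 1386956_at 0.25 and in that of *Cd163* 0.32. Of the probe sets in the same bin, 28.0% differed at least as much as *Cd68*, 34.2% and 49.8% as much as the *Scarb1* probe sets 1386956_at and 1367855_at, and 48.1% as much as *Mrc1*. For *Cd163* this share was 75.6%, for *Lyz2* 92.9% and for *Scarb2* 97.9%. All 7 members lay inside the central 95% of their bins.

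**Figure D2:**
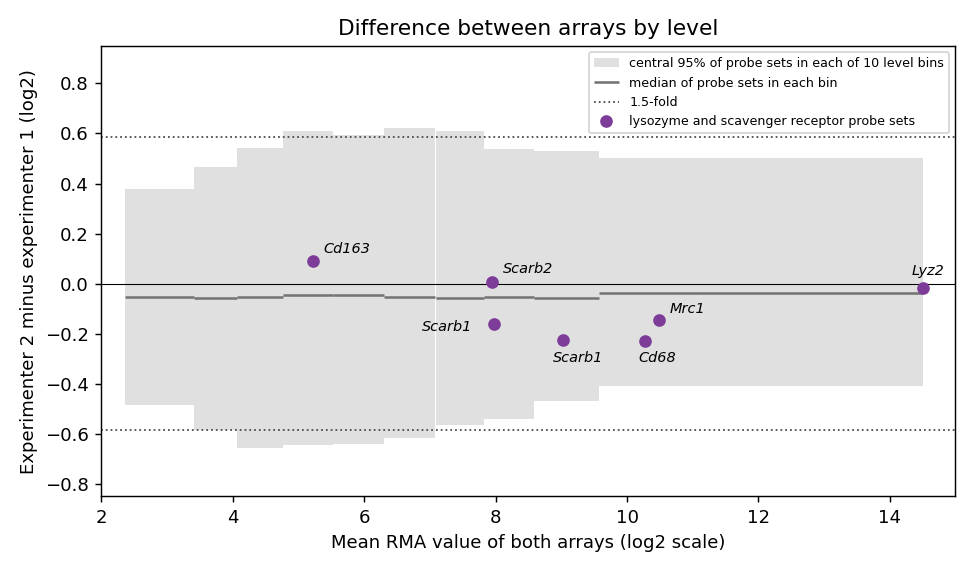
Difference of experimenter 2 minus experimenter 1 (log2, vertical axis) against the mean RMA value of both arrays (log2, horizontal axis). Points are the 7 member probe sets, grey boxes the central 95% of all probe sets in each of 10 level bins, grey lines the medians of the bins and dotted lines 1.5-fold. The members lie between -0.23 and 0.092, inside the grey boxes.

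Genes that work beside these receptors were counted in fixed lists, each gene by its brightest probe set (14217 genes in all, of which 3.24% were at least 1.5-fold apart, 0.274% at least 2-fold apart and 58.7% lower for experimenter 2, with a median difference of -0.049). Among other scavenger receptors, 4 of 12 measured genes were higher and 8 lower for experimenter 2, none by 1.5-fold, with a median of -0.057. The brightest, *Ager*, the receptor for advanced glycation end products of alveolar type 1 cells, measured 12.85 for experimenter 2 and 12.94 for experimenter 1. The widest difference was that of *Stab2*, a hyaluronan receptor of sinusoidal endothelium, at 4.55 for experimenter 2 and 4.004 for experimenter 1, below the median level of both arrays. *Cd36*, the class B relative of *Scarb1* and *Scarb2*, measured 9.04 for experimenter 2 and 9.10 for experimenter 1.

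Proteins with scavenger receptor cysteine-rich domains, the kind of domain that *Cd163* carries, were higher for experimenter 2 in 2 of 6 genes, with a median of -0.040. Their brightest gene was *Lgals3bp*, a secreted galectin-binding protein, at 9.35 for experimenter 2 and 9.40 for experimenter 1, and their widest difference was that of *Cd5*, a receptor of T cells, at -0.43. In the family of the mannose receptor and other myeloid lectins, 5 of 7 genes were higher, with a median of 0.0065. The brightest, *Clec7a*, the beta-glucan receptor dectin-1, measured 10.73 for experimenter 2 and 10.72 for experimenter 1. The 1 gene of the list past 1.5-fold was *Ly75*, an endocytic receptor of dendritic cells related to *Mrc1*, which was 2.19-fold higher for experimenter 2. Its 1 probe set measured 6.93 for experimenter 2 and 5.80 for experimenter 1, below the median of 6.32 of the latter array. Of the other siglecs, sialic acid-binding lectins like the unmeasured *Siglec1*, 1 of 5 was higher, with a median of -0.16. Their widest difference was that of *Cd33* at 0.27, and *Siglec10*, the brightest, differed by -0.23.

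Of 9 listed relatives of *Lyz2*, 3 were measured, and *Lyz1* and *Lyc2* were not among them. The 3 measured were below the median level, between percentiles 13.2 and 34.2 for experimenter 2 and between 16.3 and 32.9 for experimenter 1. *Spaca3*, a sperm protein of the lysozyme family, was the brightest, and *Lalba*, the milk protein alpha-lactalbumin, had the widest difference at -0.30.

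Lysosomal genes, which share the compartment of *Cd68* and *Scarb2*, were bright as a list. All 10 measured were at or above the median level, at median percentiles of 98.8 for both arrays, and 4 were higher and 6 lower for experimenter 2, with a median of -0.0073. *Npc2*, a carrier of cholesterol inside the lysosome, measured 12.93 for experimenter 2 and 13.02 for experimenter 1. *Lipa*, lysosomal acid lipase, differed most, by 0.37.

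Genes that handle high-density lipoprotein and cholesterol, the cargo of *Scarb1*, were lower for experimenter 2 in 6 of 9, with a median of -0.11 and none past 1.5-fold. *Apoe*, an apolipoprotein, measured 11.59 for experimenter 2 and 11.66 for experimenter 1, and *Lcat*, which esterifies the cholesterol of lipoprotein particles, differed most at -0.37. Genes that handle haemoglobin and haem, the cargo of *Cd163*, were lower in 5 of 8, with a median of -0.091. *Blvra*, biliverdin reductase A, measured 8.80 for experimenter 2 and 8.94 for experimenter 1, and *Hpx*, the haem carrier haemopexin, differed most at -0.25.

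Markers of cell types in the tissue were counted in the same way. Of 22 macrophage and myeloid markers measured, all were at or above the median level by the mean of both arrays. For experimenter 2, 7 were higher and 15 lower, and none was past 1.5-fold, with a median of -0.11. Their brightest, *Lgals3*, galectin-3, measured 12.33 for experimenter 2 and 12.22 for experimenter 1. *Itgam*, the integrin alpha M chain, had the widest difference at -0.55. It measured 6.05 for experimenter 2, below the median of 6.28 of that array, and 6.59 for experimenter 1. The list had median percentiles of 85.4 for experimenter 2 and 84.9 for experimenter 1. Alveolar type 2 markers lay higher, at 99.5 on both arrays. Endothelial markers did too, at 98.4 for experimenter 2 and 98.5 for experimenter 1, so such a level is not particular to macrophage genes.

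Alveolar type 2 cells were named above as 1 source of *Lyz2*, not the only one besides macrophages. Their markers were at or above the median level in 10 of 10, with percentiles from 83.7 up for experimenter 2 and from 84.9 up for experimenter 1. *Sftpc*, surfactant protein C, differed by -0.022 and *Abca3*, the lipid transporter of lamellar bodies, by -0.28 with its brightest probe set and -0.058 with its second, and the list had a median of -0.056. How the *Lyz2* signal divides among the cell types of the lung was not tested. Endothelial markers were at or above the median level in 9 of 9 and had a median of -0.093, with *Ramp2*, a co-receptor for adrenomedullin, brightest at a difference of 0.011 and *Calcrl*, the calcitonin receptor-like receptor, past 1.5-fold at -0.74 by its brightest probe set but not by its second, at -0.38. Neutrophil markers were at or above the median level in 3 of 7 and had a median of -0.016; *S100a9*, a calgranulin, was both their brightest and their widest difference, at -0.44. Of the 13 lists besides the members, 12 had a median below 0 and 1 above, and the medians ran from -0.16 to 0.0065 beside the median of -0.049 over all genes. By 1 probe set per gene the members had a median of -0.082, within the range of the lists.

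**Figure D3:**
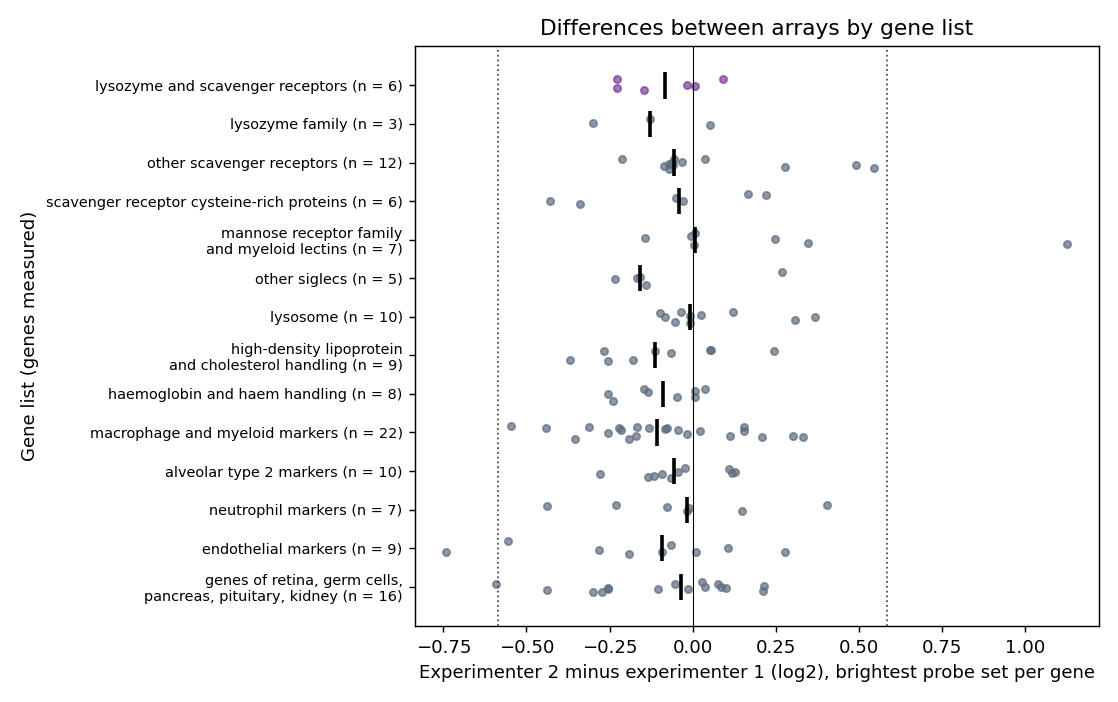
Difference of experimenter 2 minus experimenter 1 (log2, horizontal axis) for the brightest probe set of each gene in the member list (top row) and 13 other lists (vertical axis, with the number of genes measured). Points are genes, black bars the list medians and dotted lines 1.5-fold; point heights within a row are spread for legibility. The 6 member genes lie between -0.23 and 0.092, and 1 point of the lectin list, *Ly75*, lies past 1 on the log2 scale.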

How the data were processed

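Lung RNA on 2 arrays, 1 per experimenter, was analysed from the deposited table of log2 values. Per the submitters' processing notes, the authors made these log2 values with RMA; its version, the log base and which arrays were normalized together are not stated in those notes or the labels, and base 2 was taken from the range. Per the labels' protocols, RNA was purified on silica columns and biotin-labelled.

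Of 31099 probe sets, 57 controls were set aside. Of the other 31042, 20826 had 1 annotated symbol, 436 several and 9780 none. List genes were matched by current symbol through Entrez identifiers and GRCr8; no member's symbol changed. All member probe sets were named. Of each list the brightest gene and the gene with the widest difference were named, and other genes were chosen after their values were seen. The members and lists were chosen with earlier results of these data known.

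Differences are experimenter 2 minus experimenter 1. The number of arrays limits the precision, and fixed folds of 1.5 and 2 took the place of tests. Alternatives were median centring, loess (fraction 0.3), quantile normalization, other choices of probe set and a filter on level. Python 3.11.15, numpy 2.4.6, pandas 2.3.3, statsmodels 0.14.6 and matplotlib 3.10.9 were used, and the normalizations were tested on simulated data.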

Additional observations from a re-analysis of the deposited data

How the results depend on the processing

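No paired analysis was possible because the comparison is of 1 array with 1 array, which also leaves no array to omit. With no replicates, a difference or median difference was said to move only when it shifted by at least 0.1 on the log2 scale. For a count of 0, any other count was a move. By these rules 0 of the values under the alternatives moved. Part of this was fixed beforehand. Median centring only subtracts the median of -0.052 from every difference. Leaving out probe sets with shared probes, or using current symbols, keeps the same 7 member probe sets. The counts of 0 probe sets past 1.5-fold and 2-fold held under all 8 alternatives, but a choice among these probe sets could not have raised them. Relative to the median of all probe sets, *Lyz2* was 0.034 higher for experimenter 2 in place of -0.018, so its sign depends on the scaling. It was -0.040 after loess. Its value of 0 after quantile normalization was fixed in advance, because that method gives equal values to probe sets of equal rank and *Lyz2* held rank 1 on both arrays. The other 6 member probe sets kept their sign under the 3 normalizations, and their widest difference, that of *Cd68*, ran from -0.20 to -0.18. The median of the member probe sets ran from -0.15 to -0.082 over the 8 alternatives. It was -0.082 with 1 value per gene, because *Scarb1* then counts once. No member probe set was of the kinds whose identifiers mark probes shared between transcripts. Without detection calls, the low *Cd163* signal has no stated background limit.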

Other observations

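The chains of complement C1q, made in tissues largely by macrophages, were on the myeloid list and are described here after their values were seen. *C1qa* measured 8.66 for experimenter 2 and 8.68 for experimenter 1, and *C1qb* measured 8.23 for experimenter 2 and 8.21 for experimenter 1. *C1qc* measured 8.53 for experimenter 2 and 8.88 for experimenter 1, a difference of -0.35, although the 3 chains form 1 protein complex. Among the scavenger receptors, *Olr1*, the lectin-like receptor for oxidised low-density lipoprotein, measured 7.36 for experimenter 2 and 6.87 for experimenter 1, a difference of 0.49 at a level above the median of both arrays, whereas *Cxcl16*, a membrane-bound chemokine that also binds oxidised lipoprotein, differed by -0.21.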
